A study of Mus musculus with 9 samples.

Results

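The cyclic AMP responsive element modulator gene *Crem* and 9 other regulators of transcription in germ cells after meiosis were followed in adult mouse testis. The 10 genes were given by name: *Crem*, *Fhl5*, *Kdm3a*, *Brwd1*, *Tbpl1*, *Taf7l*, *Sox30*, *Gtf2a1l*, *Creb1* and *Crebrf*. They are 10 of the 32035 genes to which the transcripts measured in the testes could be assigned, and 85 of their 99 annotated transcripts are in the tables used.

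RNAseq was done on whole testes of male mice aged 15 weeks on the C57Bl6/N background, with 3 samples in each of 3 genotypes. WT testes carried an intact *Kpna6* gene, which encodes the nuclear import adaptor importin α7. *Kpna6*ΔIBB/ΔIBB testes (importin alpha7deltaIBB/deltaIBB in the labels) lacked exon 2, which shortens the mRNA and leaves a truncated protein without the domain that binds importin β. *Kpna6*-/- testes (importin alpha7-/-) carried a gene trap cassette in intron 1. Per the study, a transcript made in the testis starts downstream of that trap, so germ cells of these mice can still make the protein, which limits this genotype as a model of loss in the germ line. Both alleles were constitutive, so every cell type of the testis carried them.

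CREM is a leucine zipper factor that binds cyclic AMP responsive elements. In haploid round spermatids its activator forms switch on a set of genes for chromatin packaging and for the sperm tail, among them the transition proteins and protamines. Unlike its relative CREB1, CREM in the testis is known to work without phosphorylation, through the LIM-only coactivator ACT, the product of *Fhl5*. The *Crem* gene has several promoters and many splice forms: transcripts from the upstream promoters can encode activators, and an internal promoter gives the short repressor ICER, which keeps little more than the DNA-binding domain. Spermatids also make relatives of general transcription factors, such as TBPL1 (related to TBP), TAF7L (related to TAF7) and the TFIIA-like factor ALF, the product of *Gtf2a1l*.

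The libraries held 24859751 to 31484692 estimated counts on genes. *Kpna6* was at 201, 325 and 334 CPM in WT replicates 1 to 3, at 81.2, 85.3 and 81.8 in *Kpna6*ΔIBB/ΔIBB and at 247, 249 and 262 in *Kpna6*-/-, where CPM is the count scaled for library size and composition. It was 1.79 lower on the log2 scale in *Kpna6*ΔIBB/ΔIBB than in WT (edgeR, adjusted *P* = 1.94e-05), and *Kpna6*-/- against WT was -0.18 (adjusted *P* = 0.586). WT replicate 1 stood below the other WT samples in *Kpna6*. Markers of germ cells, Sertoli cells, Leydig cells, peritubular and endothelial cells and macrophages were detected in every sample and no library lacked a cell type.

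On the TPM scale, which allows for transcript length, the members spanned from 331 ± 18.3 TPM for *Tbpl1* to 6.35 ± 0.388 TPM for *Brwd1* in WT (mean ± SD, n = 3 here and below). Between them in WT lay *Fhl5* with 273 ± 13.6 TPM, *Crem* with 265 ± 6.43 TPM, *Gtf2a1l* with 226 ± 1.12 TPM, *Sox30* with 100.4 ± 6.45 TPM and *Kdm3a* with 69.2 ± 2.40 TPM. *Taf7l* had 29.2 ± 1.61 TPM, *Crebrf* 24.8 ± 2.72 TPM and *Creb1* 11.0 ± 0.980 TPM. The WT samples of *Fhl5* and *Crem* overlapped, and no other neighbours in this order did. In *Kpna6*ΔIBB/ΔIBB the levels of *Gtf2a1l* (215 ± 9.02 TPM), *Fhl5* (211 ± 8.41 TPM) and *Crem* (209 ± 6.79 TPM) overlapped one another, whereas in *Kpna6*-/- *Fhl5* (270 ± 12.9 TPM) and *Crem* (250.5 ± 15.7 TPM) overlapped and both stood above *Gtf2a1l* (216 ± 5.88 TPM).

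**Figure D1:**
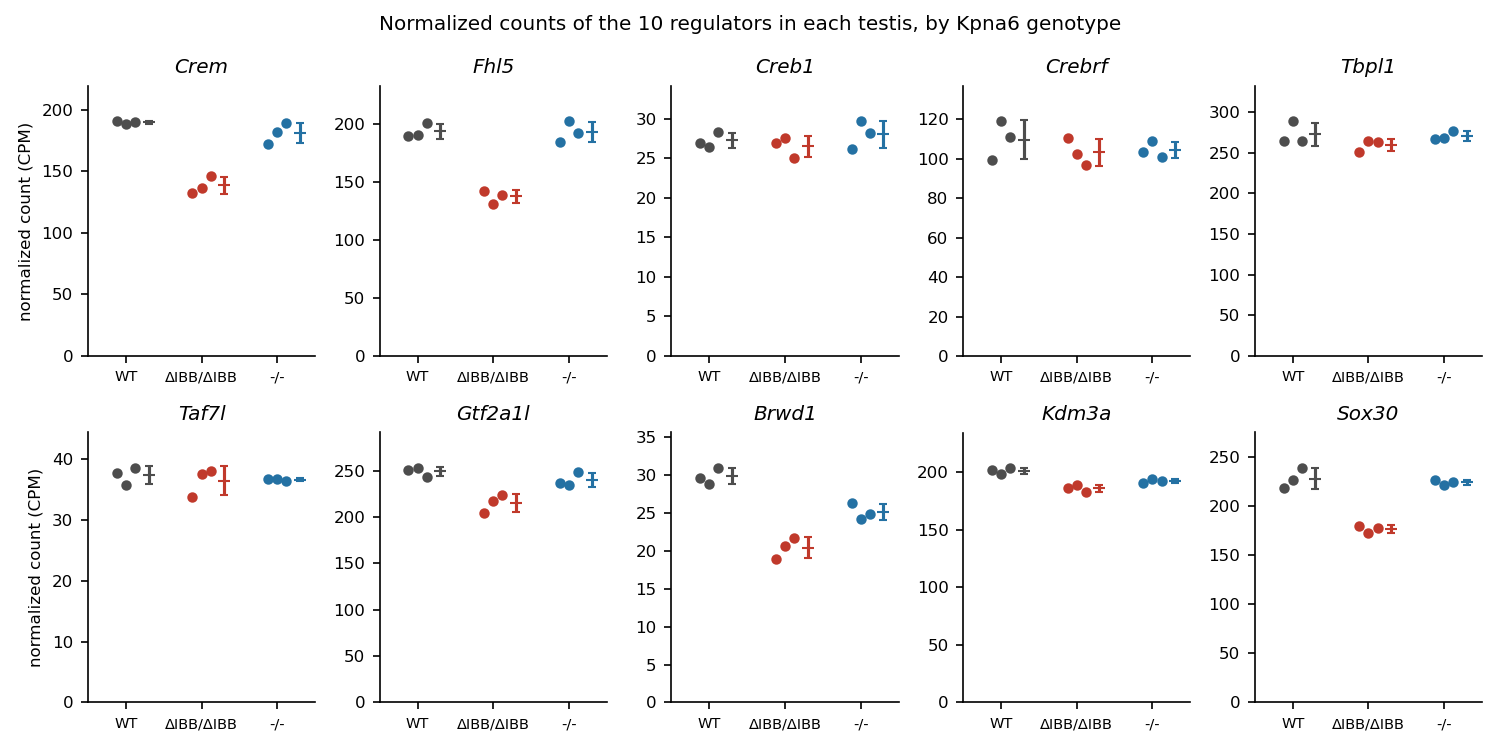
CPM of the 10 genes in every sample, 1 panel per gene with its own axis starting at 0; points are samples, and the bar beside them is their mean ± SD (n = 3). *Crem*, *Fhl5*, *Brwd1*, *Sox30*, *Gtf2a1l* and *Kdm3a* have all *Kpna6*ΔIBB/ΔIBB points below all WT points.

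*Crem*, *Fhl5*, *Brwd1* and *Sox30* were lower in *Kpna6*ΔIBB/ΔIBB testes than in WT, by 22.4 to 31.2%, and *Gtf2a1l* and *Kdm3a* fell by smaller amounts. In this comparison 6 of the 10 genes passed the test and all 6 fell, beside 36.6% of all 18797 genes tested that were called in either direction and 18.9% that were called lower (edgeR, adjusted *P* below 0.05). The CPM of those 6 members did not overlap between the genotypes, which held for 50% of all genes, 25.2% with *Kpna6*ΔIBB/ΔIBB lower. *Tbpl1*, *Taf7l*, *Creb1* and *Crebrf* did not pass the test. The fold changes of all 10 were negative with the chosen scaling, but those of *Tbpl1*, *Taf7l*, *Creb1* and *Crebrf* turned positive with scaling by library size alone and on TPM, and *Kdm3a* turned positive on TPM. Scaling by library size alone moved the median of all genes in this comparison from 0.0090 to 0.11 on the log2 scale.

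*Crem* itself had 191, 189 and 190.3 CPM in the WT samples, 133, 137 and 146 CPM in *Kpna6*ΔIBB/ΔIBB and 173, 182 and 189 CPM in *Kpna6*-/-. Every *Kpna6*ΔIBB/ΔIBB sample lay below every sample of the other genotypes, while the highest *Kpna6*-/- sample reached the WT range. *Crem* fell by 0.45 on the log2 scale in *Kpna6*ΔIBB/ΔIBB against WT (SE 0.044, 95% confidence interval -0.55 to -0.35, edgeR adjusted *P* = 3.9e-05). Against *Kpna6*-/- it fell by 0.39 (SE 0.048, edgeR adjusted *P* = 0.000105), and *Kpna6*-/- against WT gave -0.068 (edgeR adjusted *P* = 0.495). Both comparisons of *Kpna6*ΔIBB/ΔIBB use the same 3 mutant samples and are not independent.

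In RNA from whole testis, fewer cells of a type and less RNA per cell cannot be told apart. Of 8 elongating spermatid markers, 8 fell in *Kpna6*ΔIBB/ΔIBB against WT (median log2 change -0.37), and their summed level was 6812 to 7032 TPM in WT, 5645 to 5910 TPM in *Kpna6*ΔIBB/ΔIBB and 7008 to 7121 TPM in *Kpna6*-/-. Of 8 round spermatid markers, 6 fell (median -0.35), with sums of 1394 to 1460, 1207 to 1329 and 1309 to 1405 TPM in the same order. Of 8 spermatocyte markers 2 fell (median -0.12), and their sums overlapped at 869 to 932, 910 to 930 and 862 to 897 TPM. All 8 Sertoli cell markers rose (median 0.58), from 387 to 400 TPM in WT to 668 to 743 TPM, and their sum in *Kpna6*-/- was 463 to 485 TPM. In *Kpna6*-/- against WT 2 of the Sertoli cell markers rose and none of the spermatid markers passed (edgeR), and 1 spermatogonium marker, *Gfra1*, named after its values were seen, fell (-0.47, edgeR adjusted *P* = 0.0476). Of 8 spermatogonium markers 3 rose and 1 fell in *Kpna6*ΔIBB/ΔIBB against WT (113 to 127 TPM in WT, 149 to 171 TPM in *Kpna6*ΔIBB/ΔIBB and 113 to 128 TPM in *Kpna6*-/-). Of 8 macrophage markers 3 rose (53.7 to 75.8, 80.8 to 95.0 and 63.2 to 77.9 TPM), of 6 peritubular and endothelial markers 2 rose (50.6 to 52.9, 74.5 to 83.2 and 53.7 to 55.1 TPM), and of 6 Leydig cell markers 1 rose (1916 to 2945, 1896 to 2753 and 2336 to 2376 TPM). None of these markers was at 0 in any sample. Of all genes, 17.7% were called higher and 18.9% lower in *Kpna6*ΔIBB/ΔIBB against WT. In *Kpna6*-/- against WT these shares were 0.889% and 0.712%. The part of these shifts in the changes of *Crem* and the other members was not tested.

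*Fhl5*, whose product ACT is the coactivator of CREM in spermatids, had 189, 190.4 and 201 CPM in WT, 142, 131 and 139 CPM in *Kpna6*ΔIBB/ΔIBB and 184, 202 and 192 CPM in *Kpna6*-/-. The *Kpna6*ΔIBB/ΔIBB samples stood apart below the rest, and WT and *Kpna6*-/- samples mixed. *Fhl5* fell by 0.49 on the log2 scale against WT (SE 0.045, 95% confidence interval -0.59 to -0.39, edgeR adjusted *P* = 2.72e-05) and by 0.50 against *Kpna6*-/- (SE 0.045, edgeR adjusted *P* = 1.13e-05). The list of FHL proteins with KIF17, the kinesin that carries ACT out of the nucleus, held 6 genes. Of these, 2 rose and 3 fell in *Kpna6*ΔIBB/ΔIBB against WT, where 17.7% of all genes were called higher and 18.9% lower. Besides *Fhl5*, the genes that fell were *Kif17* (-0.21, edgeR adjusted *P* = 0.00373) and *Fhl4* (-0.25, edgeR adjusted *P* = 0.000296), another FHL gene expressed in testis. *Fhl1* (0.67, edgeR adjusted *P* = 5.48e-05) and *Fhl2* (0.59, edgeR adjusted *P* = 0.0176), which are best known from muscle and heart, rose. *Fhl1* had 16.7, 15.4 and 14.9 CPM in WT and 18.8, 20.0 and 18.9 CPM in *Kpna6*-/-, also above all WT samples. It did not pass in *Kpna6*-/- against WT, and *Fhl2* overlapped there.

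The *Crem* count was spread over 39 annotated transcripts, of which 8 were at 0 in all 9 samples. The 32 protein-coding ones made up 68.6 ± 0.560% of *Crem* TPM in WT, 68.7 ± 1.53% in *Kpna6*-/- and 68.4 ± 1.64% in *Kpna6*ΔIBB/ΔIBB. That share did not separate the genotypes (two-sided exact permutation tests, *P* = 0.9 for *Kpna6*ΔIBB/ΔIBB against WT, 1.0 for *Kpna6*-/- against WT and 0.7 for *Kpna6*ΔIBB/ΔIBB against *Kpna6*-/-, where 0.1 is the smallest *P* that 3 against 3 samples allow). Coding *Crem* RNA was at 182 ± 3.46 TPM in WT, 143 ± 6.91 TPM in *Kpna6*ΔIBB/ΔIBB and 172 ± 10.6 TPM in *Kpna6*-/-.

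The transcripts as annotated begin at 6 places along the gene, when first exons less than 1000 bases apart are taken as 1 place. Numbered from upstream to downstream, place 4 gave the most RNA in WT, 41.3% of *Crem* TPM from 4 transcripts, all coding. Place 5 gave 24.4% and place 1, with 11 transcripts that include the longest coding sequence of 1071 bases, gave 23.7%. Place 6, the most downstream, has 7 transcripts with coding sequences of only 285 to 375 bases, as is known for ICER, and gave 6.43 ± 0.577%. By estimated counts, which favor long transcripts, places 1 and 4 changed order: in WT place 1 held 40.0% and place 4 held 36.4% of *Crem* counts. Place 3 gave 4.04%, from 5 transcripts whose annotation is incomplete at the start. Place 2 gave 0.18%, and 5 of its 6 transcripts are incomplete at the start too. The annotated ends at places 2 and 3 thus need not be starts of transcription.

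In *Kpna6*ΔIBB/ΔIBB the RNA from place 1 was at 46.9 ± 0.860 TPM against 62.8 ± 4.20 TPM in WT and 59.0 ± 3.95 TPM in *Kpna6*-/-. Place 4 gave 84.7 ± 6.15 TPM against 109 ± 6.52 TPM in WT and 105 ± 2.96 TPM in *Kpna6*-/-. Place 5 gave 56.5 ± 4.13 TPM against 64.4 ± 0.947 TPM in WT and 60.3 ± 4.02 TPM in *Kpna6*-/-. Its *Kpna6*ΔIBB/ΔIBB samples lay below all WT samples and overlapped *Kpna6*-/-. RNA from place 6, with the short coding sequences, was at 15.1 ± 3.60 TPM in *Kpna6*ΔIBB/ΔIBB, 17.0 ± 1.80 TPM in WT and 14.4 ± 3.59 TPM in *Kpna6*-/-, and its samples overlapped between the genotypes. As a share of *Crem* TPM it was 7.25 ± 1.71% in *Kpna6*ΔIBB/ΔIBB and 5.72 ± 1.09% in *Kpna6*-/-, both with a spread that covered the WT value. Place 5 was the only one of the 6 whose share did not overlap: it took 25.6, 28.8 and 26.8% in *Kpna6*ΔIBB/ΔIBB against 24.1, 25.4 and 23.6% in WT and 23.8, 24.6 and 23.7% in *Kpna6*-/-. This difference had the smallest exact permutation *P* of 0.1 and an adjusted *P* of 0.675 over 18 tests of shares, so it did not pass.

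**Figure D2:**
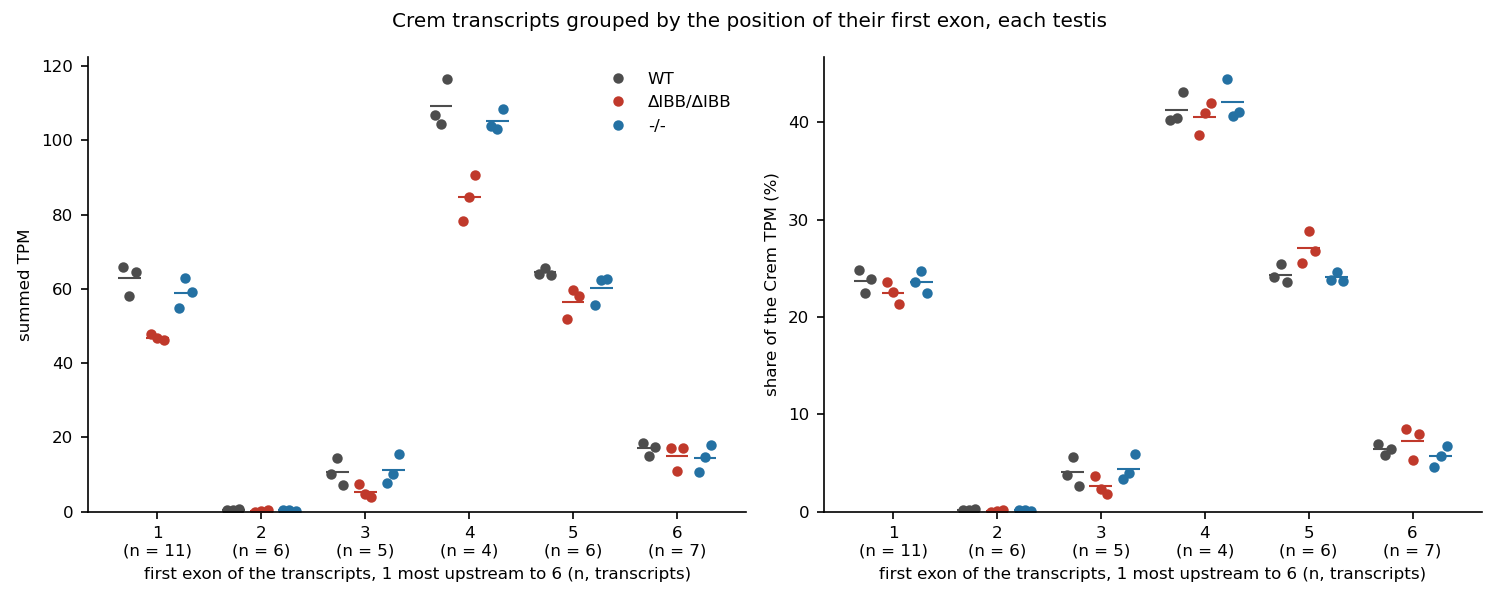
RNA of *Crem* from each of the 6 annotated start places, numbered from upstream to downstream. Left, TPM, and right, percent of all *Crem* TPM. Points are samples and bars are the means of 3. Places 1 and 4 are lower in *Kpna6*ΔIBB/ΔIBB in TPM than in both other genotypes, and their shares overlap between the genotypes. Place 5 is lower in *Kpna6*ΔIBB/ΔIBB than in WT in TPM.

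5 transcripts each held at least 5% of *Crem* TPM on average. The coding transcript *Crem-222* held 28.9 ± 1.19% in WT, 29.0 ± 2.56% in *Kpna6*-/- and 29.3 ± 0.317% in *Kpna6*ΔIBB/ΔIBB. In TPM *Crem-222* was at 79.9, 71.4 and 78.0 in WT, 60.1, 60.4 and 62.8 in *Kpna6*ΔIBB/ΔIBB and 74.6, 70.1 and 72.6 in *Kpna6*-/-. Its *Kpna6*ΔIBB/ΔIBB samples lay below all others, and its count fell by 0.43 on the log2 scale against WT (edgeR, adjusted *P* = 0.00874). *Crem-228*, the longest of the 5 with 2662 bases and a coding sequence of 1071 bases, was at 30.4, 28.7 and 31.5 TPM in WT, 22.8, 23.1 and 25.1 TPM in *Kpna6*ΔIBB/ΔIBB and 27.9, 27.0 and 29.6 TPM in *Kpna6*-/-. It fell by 0.46 on the log2 scale against WT (edgeR, adjusted *P* = 0.00754) and by 0.37 against *Kpna6*-/- (edgeR, adjusted *P* = 0.0202). Because of its length it held 31.7% of *Crem* counts in WT but 11.4% of *Crem* TPM.

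The short non-coding *Crem-214* also fell against WT, by 0.71 (edgeR, adjusted *P* = 0.0362). The coding *Crem-236* had a log2 change of -0.57 (edgeR, adjusted *P* = 0.109) and the non-coding *Crem-226*, which makes up most of place 5, had -0.25 (edgeR, adjusted *P* = 0.137). *Crem-226* was at 43.7, 45.9 and 43.6 TPM in WT, 38.0, 38.3 and 44.4 TPM in *Kpna6*ΔIBB/ΔIBB and 39.8, 50.1 and 48.9 TPM in *Kpna6*-/-, so its samples overlapped. A test of unequal change among the transcripts of *Crem* did not pass in *Kpna6*ΔIBB/ΔIBB against WT (20 transcripts, edgeR adjusted *P* = 0.291), where 5.16% of genes passed. Nor did it pass against *Kpna6*-/- (19 transcripts, adjusted *P* = 0.124, 4.76% of genes passed) or between *Kpna6*-/- and WT (adjusted *P* = 1, 0.915% of genes passed). The first of these became 0.0363 without WT replicate 1, and the second became 0.0194 without *Kpna6*-/- replicate 1 and 0.0130 when fitted on all 9 samples. The reads of the transcripts overlap along most of their length, and the error of splitting them between transcripts is not in these tests.

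Among all transcripts of the members, 7 of 58 tested were called in *Kpna6*ΔIBB/ΔIBB against WT, all lower, beside 9.73% of all transcripts called and 5.8% called lower (edgeR). In the comparison with *Kpna6*-/-, 6 of 56 were called, all lower, beside 7.35% called and 4.94% called lower. The first count was 4 without WT replicate 3 or without *Kpna6*ΔIBB/ΔIBB replicate 1, and the second was 3 without *Kpna6*ΔIBB/ΔIBB replicate 1 or without *Kpna6*-/- replicate 1 or 3. In *Kpna6*-/- against WT 0 of 56 were called by edgeR (3 at an unadjusted *P* below 0.05) and 0 by DESeq2, beside 0.0561% of all transcripts called. Both transcripts of *Fhl5*, which have coding sequences of equal length, fell against WT: *Fhl5-201* by 0.58 (edgeR, adjusted *P* = 0.00356) and *Fhl5-202* by 0.26 (edgeR, adjusted *P* = 0.0258). The share of *Fhl5-201* in *Fhl5* TPM was 71.3 ± 1.83% in WT, 72.1 ± 1.49% in *Kpna6*-/- and 66.6 ± 1.36% in *Kpna6*ΔIBB/ΔIBB. *Fhl5* was the only member whose transcript use passed the test, in *Kpna6*ΔIBB/ΔIBB against *Kpna6*-/- (edgeR, adjusted *P* = 0.0464); against WT it was at 0.0609.

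*Creb1*, the widely expressed relative of *Crem*, had 27.0, 26.5 and 28.3 CPM in WT, 27.0, 27.6 and 25.0 CPM in *Kpna6*ΔIBB/ΔIBB and 26.2, 29.7 and 28.2 CPM in *Kpna6*-/-. The 3 genotypes overlapped, and the log2 change of *Creb1* in *Kpna6*ΔIBB/ΔIBB against WT was -0.035 (95% confidence interval -0.17 to 0.10, edgeR adjusted *P* = 0.703). *Crebrf*, a regulator that holds back the factor CREB3, had 99.5, 119 and 111 CPM in WT, 110.4, 102 and 96.9 CPM in *Kpna6*ΔIBB/ΔIBB and 103, 109 and 101 CPM in *Kpna6*-/-. Its samples overlapped too, with a log2 change of -0.085 (95% confidence interval -0.24 to 0.07, edgeR adjusted *P* = 0.372).

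The CREB and ATF family with its coactivators moved both ways. Of 20 genes, 7 rose, 4 fell and 9 did not pass in *Kpna6*ΔIBB/ΔIBB against WT (median log2 change 0.018, against 0.0090 for all genes), beside 17.7% of all genes called higher and 18.9% lower. *Creb3*, a membrane-bound factor (0.63, edgeR adjusted *P* = 0.00011), *Creb3l2* (0.53, edgeR adjusted *P* = 0.0031) and the coactivator *Crtc3* (0.45, edgeR adjusted *P* = 0.000229) rose. *Creb3l4*, a relative of *Creb3* made in spermatids, fell by 0.48 (edgeR, adjusted *P* = 2.58e-05), and so did, by smaller amounts, the acetyltransferases that bind the family, *Crebbp* (-0.19, edgeR adjusted *P* = 0.0146) and *Ep300* (-0.21, edgeR adjusted *P* = 0.0261), which are named after their values were seen. Of these 6 genes *Creb3* and *Crtc3* also had positive log2 changes in *Kpna6*-/- against WT that did not pass (0.30, edgeR adjusted *P* = 0.0586, and 0.24, edgeR adjusted *P* = 0.0797). *Crebbp* had 71.2, 74.5 and 77.8 CPM in WT, 63.0, 66.9 and 65.7 CPM in *Kpna6*ΔIBB/ΔIBB and 67.6, 64.7 and 65.3 CPM in *Kpna6*-/-. Its *Kpna6*-/- samples thus also lay below all WT samples, but it did not pass in that comparison. *Creb3l2*, *Creb3l4* and *Ep300* overlapped between *Kpna6*-/- and WT.

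Among the germ-cell relatives of general factors, *Gtf2a1l* fell and *Tbpl1* and *Taf7l* did not pass the test. *Gtf2a1l* had 251, 253 and 243 CPM in WT, 204, 217 and 224 CPM in *Kpna6*ΔIBB/ΔIBB and 237, 234 and 248 CPM in *Kpna6*-/-. Its *Kpna6*ΔIBB/ΔIBB samples lay below all others, with a log2 change of -0.21 against WT (SE 0.042, edgeR adjusted *P* = 0.00306) and -0.16 against *Kpna6*-/- (SE 0.042, edgeR adjusted *P* = 0.0133). Tested on log2(TPM + 1) with limma, the change of *Gtf2a1l* was -0.075 against WT and -0.010 against *Kpna6*-/-, and neither passed (adjusted *P* = 0.201 and 0.874). Without *Kpna6*-/- replicate 3 the change against *Kpna6*-/- did not pass (edgeR, adjusted *P* = 0.0619).

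*Tbpl1*, whose product TRF2 is needed for spermatids to mature, had 265, 289 and 264 CPM in WT, 251, 265 and 264 CPM in *Kpna6*ΔIBB/ΔIBB and 267, 268 and 277 CPM in *Kpna6*-/-. Its *Kpna6*ΔIBB/ΔIBB samples overlapped WT and lay just below *Kpna6*-/-, and the log2 change against WT was -0.065 (95% confidence interval -0.16 to 0.03, edgeR adjusted *P* = 0.284). *Tbpl1* shares 407 exon bases with *Slc2a12* on the opposite strand, which had a mean of 2.87 TPM. The X-linked *Taf7l* had 37.7, 35.6 and 38.5 CPM in WT, 33.7, 37.5 and 38.0 CPM in *Kpna6*ΔIBB/ΔIBB and 36.6, 36.7 and 36.3 CPM in *Kpna6*-/-, which overlapped (log2 change -0.028 against WT, 95% confidence interval -0.17 to 0.11, edgeR adjusted *P* = 0.763). The lesser transcript *Taf7l-202* took 8.92% of *Taf7l* TPM in WT, 14.5% in *Kpna6*-/- and 11.4% in *Kpna6*ΔIBB/ΔIBB, but transcript use of *Taf7l* did not pass in any comparison (edgeR, adjusted *P* = 0.667, 0.249 and 0.586 for *Kpna6*ΔIBB/ΔIBB against WT, *Kpna6*-/- against WT and *Kpna6*ΔIBB/ΔIBB against *Kpna6*-/-).

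Of 23 tested genes for TBP, TFIIA and TFIID subunits, 1 rose and 5 fell in *Kpna6*ΔIBB/ΔIBB against WT, beside 17.7% of all genes called higher and 18.9% lower and with a median log2 change of -0.065. This median was 0.033 with scaling by library size alone and 0.056 on log2(TPM + 1). The TFIID subunits *Taf13* (-0.31, edgeR adjusted *P* = 0.00158) and *Taf9* (-0.29, edgeR adjusted *P* = 0.000247) and the small TFIIA subunit *Gtf2a2* (-0.25, edgeR adjusted *P* = 0.00117) fell, and *Taf1*, the largest TFIID subunit, rose (0.27, edgeR adjusted *P* = 0.0239).

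*Brwd1*, whose product reads acetylated histones through its bromodomains and is needed for spermiogenesis, was lower in *Kpna6*ΔIBB/ΔIBB. It had 29.7, 28.9 and 31.0 CPM in WT, 19.0, 20.7 and 21.6 CPM in *Kpna6*ΔIBB/ΔIBB and 26.3, 24.2 and 24.9 CPM in *Kpna6*-/-. In CPM the 3 genotypes did not overlap, with *Kpna6*-/- between the other genotypes. In TPM *Kpna6*ΔIBB/ΔIBB (5.02, 5.35 and 5.04) and *Kpna6*-/- (5.84, 5.43 and 5.30) overlapped, both below WT (6.10, 6.15 and 6.79). *Brwd1* fell by 0.54 on the log2 scale in *Kpna6*ΔIBB/ΔIBB against WT (SE 0.068, 95% confidence interval -0.69 to -0.39, edgeR adjusted *P* = 0.000163) and by 0.30 against *Kpna6*-/- (SE 0.068, edgeR adjusted *P* = 0.00577). *Kpna6*-/- against WT was -0.25 (95% confidence interval -0.38 to -0.12), which had an unadjusted *P* of 0.00153 and an edgeR adjusted *P* of 0.0672. With limma on log2(TPM + 1) the 2 falls of *Brwd1* did not pass (adjusted *P* = 0.0650 and 0.459).

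The tables used hold 3 of the 16 annotated *Brwd1* transcripts. The level of *Brwd1-201* differed widely among samples, at 1.90, 1.51 and 2.60 TPM in WT, 0.905, 0.668 and 0.177 TPM in *Kpna6*ΔIBB/ΔIBB and 1.37, 0.614 and 0.170 TPM in *Kpna6*-/-. All WT samples of *Brwd1-201* were above the others, and the transcript's log2 change in *Kpna6*ΔIBB/ΔIBB against WT was -1.90 (edgeR, adjusted *P* = 0.0650). *Brwd1-202*, which has as many exons and a coding sequence of the same length, was at 1.81, 1.99 and 1.36 TPM in WT, 1.45, 1.96 and 2.64 TPM in *Kpna6*ΔIBB/ΔIBB and 1.78, 2.25 and 2.77 TPM in *Kpna6*-/-. Its samples overlapped, its log2 change against WT was 0.12 (edgeR, adjusted *P* = 0.823), and its mean share of *Brwd1* TPM was 27.4% in WT, 41.4% in *Kpna6*-/- and 39.3% in *Kpna6*ΔIBB/ΔIBB, against 31.3%, 12.6% and 11.3% for *Brwd1-201*. The transcript use of *Brwd1* did not pass (edgeR, adjusted *P* = 0.0654 in *Kpna6*ΔIBB/ΔIBB against WT, 0.426 in *Kpna6*-/- against WT and 0.996 in *Kpna6*ΔIBB/ΔIBB against *Kpna6*-/-).

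*Kdm3a*, whose product removes methyl groups from lysine 9 of histone H3 and is known to act at the *Tnp1* and *Prm1* genes, had 202, 199 and 204 CPM in WT, 186, 188 and 183 CPM in *Kpna6*ΔIBB/ΔIBB and 190.3, 194 and 193 CPM in *Kpna6*-/-. All *Kpna6*ΔIBB/ΔIBB samples lay below *Kpna6*-/- and these below WT, by little. *Kdm3a* fell by 0.11 on the log2 scale against WT (SE 0.036, edgeR adjusted *P* = 0.0355). The direction of *Kdm3a* was not stable: in TPM it was at 69.2 ± 2.40 in WT and 72.5 ± 1.30 in *Kpna6*ΔIBB/ΔIBB, and limma on log2(TPM + 1) gave 0.066. Without any 1 of WT replicates 1 and 3 or *Kpna6*ΔIBB/ΔIBB replicates 1 to 3 *Kdm3a* did not pass either (edgeR, adjusted *P* = 0.0560, 0.0923, 0.0837, 0.0773 and 0.106). The log2 change of *Kdm3a* against *Kpna6*-/- was -0.054 (edgeR, adjusted *P* = 0.251).

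Of 10 bromodomain and JmjC genes, including *Brwd1* and *Kdm3a*, 4 fell, 1 rose and 5 did not pass in *Kpna6*ΔIBB/ΔIBB against WT, beside 17.7% of all genes called higher and 18.9% lower. The median log2 change was -0.063, and it was 0.035 with scaling by library size alone and 0.050 on log2(TPM + 1). *Brdt*, the testis bromodomain protein (-0.26, edgeR adjusted *P* = 0.000208), and *Jmjd1c*, a relative of *Kdm3a* (-0.26, edgeR adjusted *P* = 0.0042), fell. In *Kpna6*-/- both also lay below all WT samples, without passing. *Brdt* had 298, 305 and 300 CPM in WT and 282, 284 and 289 CPM in *Kpna6*-/-. *Jmjd1c* had 79.3, 87.4 and 86.5 CPM in WT and 75.2, 76.6 and 75.6 CPM in *Kpna6*-/-.

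*Sox30*, a SOX factor that switches on genes in late meiosis and in round spermatids, had 219, 227 and 239.5 CPM in WT, 179.8, 173 and 178 CPM in *Kpna6*ΔIBB/ΔIBB and 227, 222 and 224 CPM in *Kpna6*-/-. The *Kpna6*ΔIBB/ΔIBB samples lay well below the others, which mixed. *Sox30* fell by 0.37 on the log2 scale against WT (SE 0.044, 95% confidence interval -0.46 to -0.27, edgeR adjusted *P* = 0.000118) and by 0.35 against *Kpna6*-/- (SE 0.033, edgeR adjusted *P* = 1.71e-05). *Sox30* has 1 annotated transcript, so it has no transcript use to test. Among 12 germ-cell transcription factors including *Sox30*, 8 fell and none rose in *Kpna6*ΔIBB/ΔIBB against WT (median -0.28), beside 17.7% of all genes called higher and 18.9% lower. Examples were *Sox6* (-0.54, edgeR adjusted *P* = 0.000167), *Rfx3* (-0.38, edgeR adjusted *P* = 0.00112) and the nuclear receptor *Nr6a1* (-0.35, edgeR adjusted *P* = 7.21e-05). In *Kpna6*-/- the samples of *Nr6a1* (219, 211 and 219 CPM, WT 240, 243 and 239 CPM) also lay below all WT samples. So did those of *Rfx3* (44.3, 47.1 and 47.2 CPM, WT 51.5, 48.8 and 47.8 CPM), while *Sox6* overlapped. None of these 3 passed in *Kpna6*-/- against WT.

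**Figure D3:**
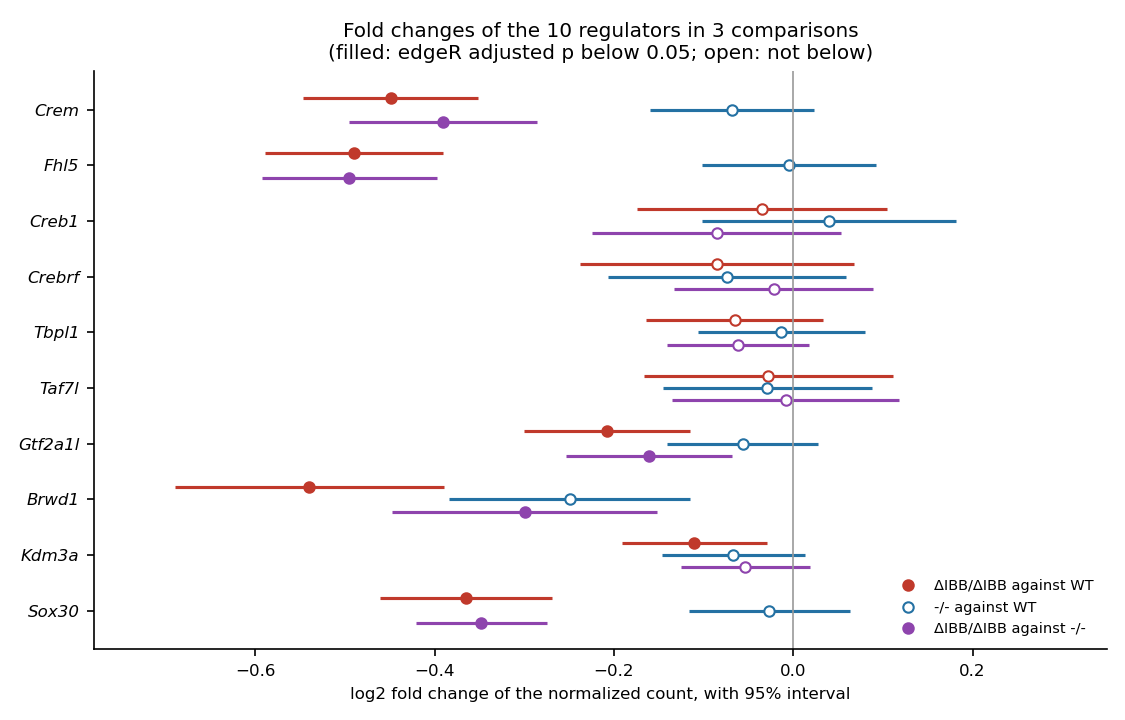
Log2 fold changes of the 10 genes with 95% confidence intervals in the 3 comparisons; filled points passed the edgeR test at an adjusted *P* below 0.05. The intervals of *Crem*, *Fhl5*, *Sox30*, *Brwd1* and *Gtf2a1l* lie below 0 in both comparisons of *Kpna6*ΔIBB/ΔIBB, and no gene passed in *Kpna6*-/- against WT.

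Against *Kpna6*-/-, 5 of the 10 members fell in *Kpna6*ΔIBB/ΔIBB and none rose, beside 30.3% of 18752 genes called, 13.5% higher and 16.8% lower (edgeR). The samples of 7 members did not overlap in that comparison, all with *Kpna6*ΔIBB/ΔIBB lower, which held for 44.5% of all genes in either direction and for 22.7% with *Kpna6*ΔIBB/ΔIBB lower. In *Kpna6*-/- against WT none of the 10 passed (edgeR), beside 1.6% of 18681 genes called, 0.889% higher and 0.712% lower, and 1 of them, *Brwd1*, had an unadjusted *P* below 0.05. DESeq2 also called none of them. The samples of 2 members, *Brwd1* and *Kdm3a*, did not overlap in *Kpna6*-/- against WT, which held for 20% of all genes, 9.82% with *Kpna6*-/- lower.

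The 9 genes listed here as dependent on CREM in spermatids were lower in *Kpna6*ΔIBB/ΔIBB as well. The list was chosen with earlier results of these data known. The study had already reported its transition protein and protamine genes as slightly lower in the same RNAseq. The count below therefore describes these 9 genes and is no independent test of all CREM targets. All 9 genes of that list fell against WT (edgeR), beside 18.9% of all genes called lower. Their median log2 change was -0.36 beside 0.0090 for all genes, and 6 to 9 of them were called under the alternatives tried. The transition protein gene *Tnp1* fell by 0.59 (edgeR, adjusted *P* = 0.00016), the kinase gene *Camk4* by 0.56 (edgeR, adjusted *P* = 4.06e-05), the sperm mitochondria gene *Smcp* by 0.48 (edgeR, adjusted *P* = 1.39e-05) and the tail gene *Odf1* by 0.44 (edgeR, adjusted *P* = 1.39e-05). The protamine genes *Prm1* and *Prm2*, named for their role after the values were seen, had -0.36 and -0.35 (edgeR, adjusted *P* = 0.00714 and 0.000646). All 9 fell against *Kpna6*-/- too, with a median of -0.43, beside 16.8% of all genes called lower. In *Kpna6*-/- against WT none was called, beside 1.6% of all genes, and the median was 0.051. Levels of the 8 elongating spermatid markers, given above, moved the same way as these genes in *Kpna6*ΔIBB/ΔIBB, and the part of that shift was not tested here. Per the study, real-time PCR on sorted round spermatids also gave lower transition protein and protamine mRNA in *Kpna6*ΔIBB/ΔIBB than in WT. Its staining of testis sections showed no major difference in the amount or place of CREM protein.

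**Figure D4:**
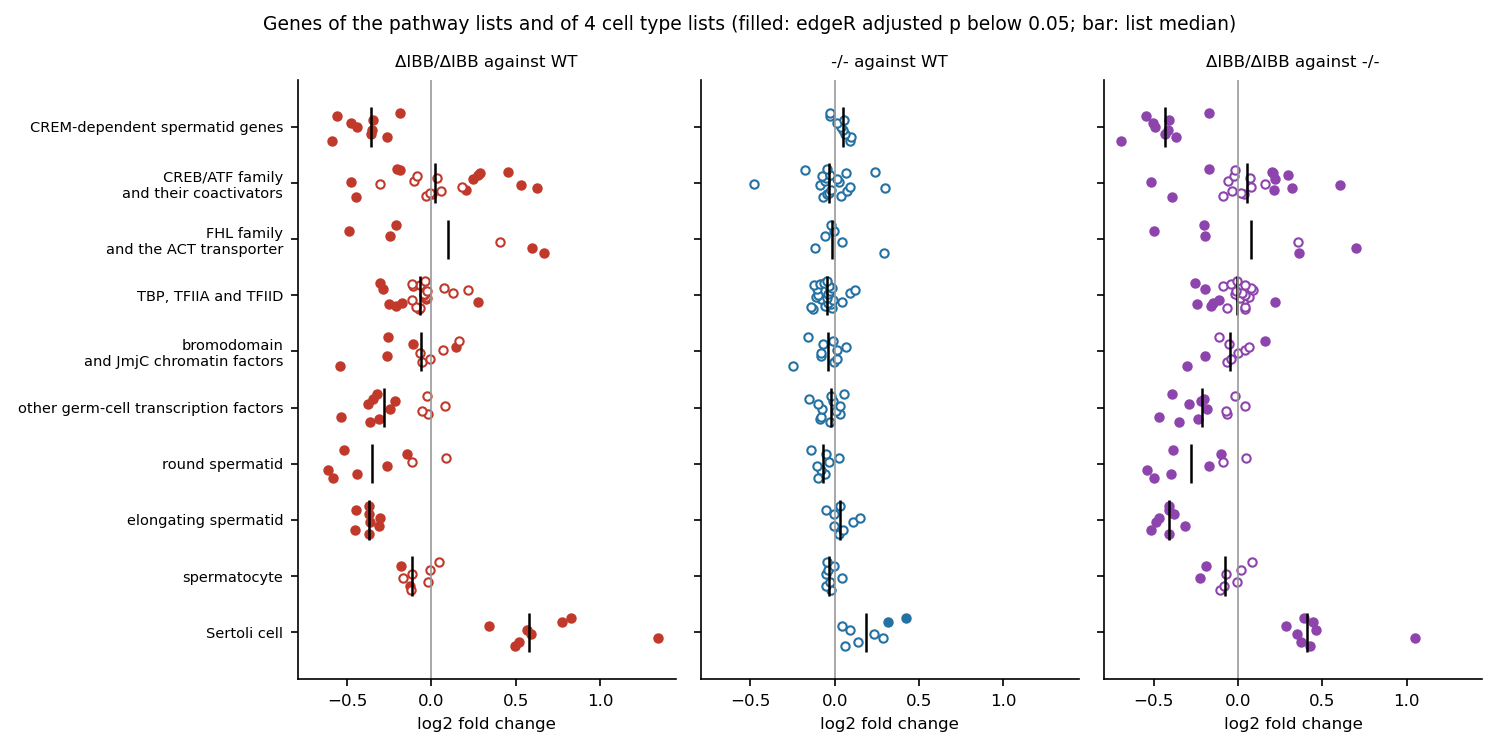
Log2 fold changes of the genes of 6 pathway lists and 4 cell type lists in the 3 comparisons; each point is a gene, filled where it passed the edgeR test, and the line is the median of the list. In *Kpna6*ΔIBB/ΔIBB against WT the CREM-dependent list has its median at -0.36 and the CREB and ATF list at 0.018.

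The promoters of the members and of the CREM-dependent genes, as given by RefSeq on GRCm38.p6 from 250 bases before to 50 after each start, were searched for cyclic AMP responsive elements on both strands. The promoters of *Crem* and *Camk4* were left out of the counts, so whether they hold such an element is not given here. The counts cover 12 promoters of 9 of the 10 members and 7 promoters of 6 of the 9 CREM-dependent genes. None of these held the full element TGACGTCA, which is in 1.79% of all 32851 promoters. The short element TGACG was in 1 of the 12 promoters of members, in *Crebrf*, and in 0 of the 7 of CREM-dependent genes, against 20.8% of all promoters. The looser form TGANNTCA, where N is any base and which covers the full element, was searched after that result was seen. It reads the same on both strands and is in 14.1% of all promoters. It was in 2 of the 12 promoters of members, in *Fhl5* and *Sox30*, and in 4 of the 7 promoters of CREM-dependent genes, each of a different gene. These matches describe the letters only. The windows below show upstream matches with 20 bases on either side, read along the gene's strand, with the match in capitals. They are given for the counted members that have one and for 3 CREM-dependent genes to set beside them.
*Fhl5*: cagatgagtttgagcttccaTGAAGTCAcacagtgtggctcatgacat
*Sox30*: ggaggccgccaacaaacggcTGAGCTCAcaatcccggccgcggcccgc
*Crebrf*: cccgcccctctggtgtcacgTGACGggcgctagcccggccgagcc
*Tnp1*: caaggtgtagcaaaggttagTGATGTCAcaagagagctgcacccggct
*Ace*: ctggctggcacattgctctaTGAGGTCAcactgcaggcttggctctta
*Prm1*: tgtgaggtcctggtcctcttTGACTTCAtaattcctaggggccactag

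The *Fhl5* window is chr4:25242897-25242944 on the minus strand, and its match ends 64 bases before the start of transcription. The *Sox30* window is chr11:45980258-45980305 on the plus strand, 24 bases before the start, and the *Crebrf* window is chr17:26715509-26715553 on the plus strand, 116 bases before it. The *Tnp1* window, chr1:73015966-73016013 on the minus strand, has its match 86 bases before the start. The *Ace* window, chr11:105975117-105975164 on the plus strand, has it 44 bases before the start, and the *Prm1* window, chr16:10796860-10796907 on the minus strand, 56 bases. Of the members with a window, *Fhl5* and *Sox30* fell in *Kpna6*ΔIBB/ΔIBB and *Crebrf* did not pass the test.

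The genes lie apart on the genome (GRCm38). *Crem* is at chr18:3266048-3337748 and *Fhl5* at chr4:25199908-25242876, both on the minus strand, as are *Tbpl1* at chr10:22703879-22731938, *Kdm3a* at chr6:71588972-71632990, *Brwd1* at chr16:95992092-96082526 and *Taf7l* at chrX:134460118-134476490. On the plus strand are *Sox30* at chr11:45980310-46017994, *Gtf2a1l* at chr17:88668660-88715152, *Crebrf* at chr17:26715650-26776635 and *Creb1* at chr1:64532645-64604548.

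For 7 members the level was set against a paralogue made in other cells too, as the log2 ratio of their TPM within each sample, which does not depend on the scaling between libraries. The log2 ratio of *Fhl5* to *Fhl2* was 5.13 ± 0.391 in WT and 5.10 ± 0.227 in *Kpna6*-/-, and 3.99 ± 0.163 in *Kpna6*ΔIBB/ΔIBB. *Crem* over *Creb1* had 4.59 ± 0.113 in WT, 4.55 ± 0.0930 in *Kpna6*-/- and 4.15 ± 0.0883 in *Kpna6*ΔIBB/ΔIBB, that is 24.0, 23.5 and 17.8 times as much *Crem* RNA. These 2 ratios did not overlap between *Kpna6*ΔIBB/ΔIBB and either other genotype. *Kdm3a* over *Kdm3b*, with 2.99 ± 0.0750, 2.96 ± 0.0808 and 2.78 ± 0.0989 in the same order, also stood lower in *Kpna6*ΔIBB/ΔIBB, and *Brwd1* over *Brwd3*, with 0.79 ± 0.092, 0.73 ± 0.14 and 0.59 ± 0.061, did so against WT. *Kdm3b* itself was at 8.70 TPM in WT, 8.59 TPM in *Kpna6*-/- and 10.6 TPM in *Kpna6*ΔIBB/ΔIBB, and *Fhl2* at 7.98, 7.93 and 13.3 TPM, so both paralogues were higher in *Kpna6*ΔIBB/ΔIBB, where *Kdm3a* TPM was not lower.

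*Tbpl1* over *Tbp* had 1.30 ± 0.0199, 1.26 ± 0.0221 and 1.39 ± 0.0977 in WT, *Kpna6*ΔIBB/ΔIBB and *Kpna6*-/-, and *Taf7l* over *Taf7* had 1.80 ± 0.0711, 1.65 ± 0.108 and 1.72 ± 0.0560. *Gtf2a1l* over *Gtf2a1* was the pair with the largest difference between *Kpna6*-/- and WT, 3.87 ± 0.0564 against 3.50 ± 0.198, and had 3.66 ± 0.132 in *Kpna6*ΔIBB/ΔIBB. In a two-sided exact permutation test the ratios that did not overlap had *P* = 0.1, the smallest possible, and no pair passed after adjustment over 21 tests (lowest adjusted *P* = 0.191).

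**Figure D5:**
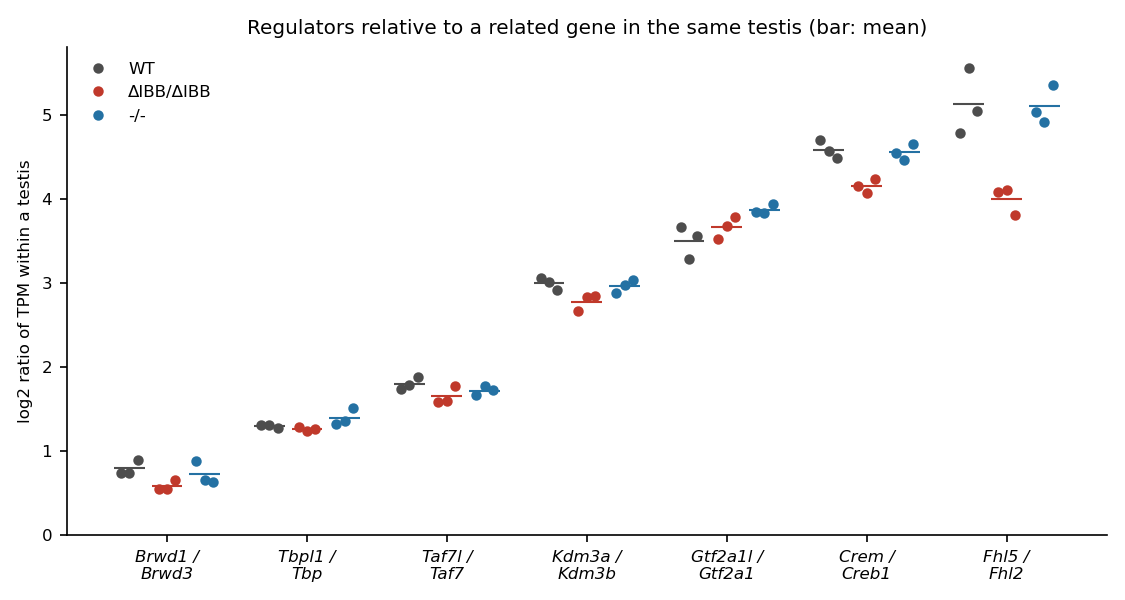
Log2 ratio of the TPM of each member to that of a paralogue, by sample; points are samples and bars are the means of 3. *Fhl5* over *Fhl2* and *Crem* over *Creb1* are lower in *Kpna6*ΔIBB/ΔIBB than in both other genotypes, and *Taf7l* over *Taf7* overlaps between the genotypes.

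The genes whose CPM followed *Crem* most closely over the 9 samples, among 9191 genes with at least 10 TPM on average, were *Kcne3*, a potassium channel subunit (Pearson's *r* of log2 CPM 0.996), *1700001J03Rik* (0.996), *Mfsd13b* (0.995), *Apobec4* (0.994) and *Rffl* (0.994). As many as 1353 genes had an *r* above 0.9 with *Crem*, and all share the same 9 libraries and the same gap between *Kpna6*ΔIBB/ΔIBB and the rest.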

How the data were processed

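Poly(A) RNA of 9 testes was sequenced. The authors deposited, per transcript, an estimated count from kallisto (version 0.45 in the submitters' processing notes, mm10), not normalized between samples. They also deposited a TPM value, scaled to the same total in every library. The transcript release is not given in the sources used here. Of 96626 transcripts, 95301 were assigned by identifier to 32035 genes of GENCODE M21 (GRCm38), which took 99.5 to 99.6% of the counts.

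Estimated counts were summed per gene and rounded. Each pair of genotypes was fitted with edgeR 4.0.16 (filterByExpr, TMM scaling, quasi-likelihood test) in R 4.3.3, with *P* adjusted over all genes by Benjamini-Hochberg and called below 0.05. Standard errors were derived from the *F* statistic. Transcripts were fitted the same way, and transcript use was tested with diffSpliceDGE, per gene. The error of assigning reads to transcripts is not in the tests; the strand of the library was not stated. The edgeR *P* sets a difference between genotypes against the spread between the samples of a genotype. CPM used TMM factors over all 9 samples; SDs are over 3. The code was tested on simulated data.

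The genes named are the 10 members, *Kpna6*, paralogues, at most 4 other genes per list (the largest changes called in *Kpna6*ΔIBB/ΔIBB against WT), the 5 genes most like *Crem*, and transcripts with at least 5% of a member's TPM in a group; exceptions are stated, and the value of 1 list gene is not reported here. Members and lists were chosen with earlier results of these data known. Alternatives were DESeq2 1.42.0, library-size scaling, length-scaled TPM counts, limma 3.58.1 on log2(TPM + 1) and log2(TPM + 0.1), no filter, a filter of 5 counts in a share of 0.47 of samples, genes of near-identical sequence summed, a fit on all 9 samples, the replicate number as a block and leaving out each sample. Tables were handled in Python 3.11.15 with pandas 2.3.3, numpy 2.4.6, scipy 1.17.1 and matplotlib 3.10.9.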

Additional observations from a re-analysis of the deposited data

How the results depend on the processing

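*Crem*, *Fhl5* and *Sox30* were called in all 16 alternatives in *Kpna6*ΔIBB/ΔIBB against WT and against *Kpna6*-/-. Their smallest log2 falls against WT among the alternatives were -0.34, -0.37 and -0.24, beside -0.45, -0.49 and -0.37 in the main fit. For *Brwd1* the smallest was -0.26, beside -0.54. The number of members called in *Kpna6*ΔIBB/ΔIBB against WT was 6, 3 with limma on log2(TPM + 1) and on log2(TPM + 0.1), and 5 to 6 when any sample was left out. Against *Kpna6*-/- it was 5, again 3 with both forms of limma, and 4 to 5 when any sample was left out. In *Kpna6*-/- against WT it was 0, and 1 without a filter on low counts (*Brwd1*, edgeR adjusted *P* = 0.0490). *Kdm3a* against WT lost its call without a filter (edgeR, adjusted *P* = 0.0583), with library size alone (0.803) and with length-scaled counts (0.444), and *Gtf2a1l* against *Kpna6*-/- with library size alone (edgeR, adjusted *P* = 0.246), length-scaled counts (0.0571) and limma (0.874 in both forms). By estimated counts place 1 of *Crem* held 40.0, 39.1 and 39.7% and place 4 held 36.4, 35.2 and 37.2% in WT, *Kpna6*ΔIBB/ΔIBB and *Kpna6*-/-. Estimated counts, unlike TPM, do not allow for transcript length. The cause of the lost calls of *Kdm3a* and *Gtf2a1l* was not tested. Member transcripts called against WT were 7, 4 with library size alone and 4 to 7 when a sample was left out. Against *Kpna6*-/- they were 6, 11 with DESeq2 and 3 to 5 when a sample was left out. The adjusted *P* of *Crem* transcript use (edgeR) ran from 0.0363 to 0.677 against WT and from 0.0194 to 0.498 against *Kpna6*-/- when a sample was left out, and was 0.0130 against *Kpna6*-/- with all 9 samples fitted. As shares of estimated counts in WT, *Kpna6*ΔIBB/ΔIBB and *Kpna6*-/-, *Crem-228* had 31.7, 31.2 and 31.2%, *Crem-222* 23.6, 23.6 and 23.7%, *Crem-226* 11.1, 12.5 and 12.1% and *Crem-214* 3.74, 3.11 and 3.73%. Of the lists in *Kpna6*ΔIBB/ΔIBB against WT, genes called lower went from 5 to 2 for TBP, TFIIA and TFIID and from 4 to 1 for the bromodomain and JmjC genes with limma on log2(TPM + 1), and genes called higher among the CREB and ATF family from 7 to 4 with length-scaled counts.

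Log2 changes that turned sign belong to members or comparisons that were not called, apart from *Kdm3a* against WT (0.066 and 0.067 with limma on log2(TPM + 1) and log2(TPM + 0.1)). In *Kpna6*ΔIBB/ΔIBB against WT, with library size alone and the 2 forms of limma in turn, *Tbpl1* had 0.033, 0.045 and 0.045, *Taf7l* 0.070, 0.097 and 0.099, *Creb1* 0.063, 0.083 and 0.089, and *Crebrf* 0.014, 0.011 and 0.011. Leaving out a sample gave *Taf7l* -0.067 to 0.024 and *Creb1* -0.064 to 0.0072. Against *Kpna6*-/- the same 3 settings gave *Kdm3a* 0.046, 0.11 and 0.12, *Tbpl1* 0.038, 0.090 and 0.090, *Taf7l* 0.091, 0.097 and 0.099, *Creb1* 0.014, 0.13 and 0.14, and *Crebrf* 0.079, 0.15 and 0.15. Length-scaled counts gave *Creb1* 0.0091 and *Crebrf* 0.021. Leaving out a sample gave *Taf7l* -0.037 to 0.047 and *Crebrf* -0.067 to 0.026. In *Kpna6*-/- against WT, *Fhl5* had 0.0032 with library size alone, *Taf7l* 0.013 with length-scaled counts and 2.8e-05 and 7.1e-05 with limma, and *Creb1* -0.037 with length-scaled counts and -0.045 and -0.049 with limma. Leaving out a sample there gave *Fhl5* -0.039 to 0.028, *Tbpl1* -0.033 to 0.030, *Sox30* -0.057 to 0.010 and *Creb1* -0.0027 to 0.086.

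Deviations from the genotype mean correlated at -0.0555 to 0.0728 between samples of different genotypes with the same replicate number. With different numbers they correlated at -0.127 to 0.0733. Whether the numbers mark a pairing cannot be told from these values. With the replicate number as a block 6, 0 and 5 members were called in *Kpna6*ΔIBB/ΔIBB against WT, *Kpna6*-/- against WT and *Kpna6*ΔIBB/ΔIBB against *Kpna6*-/-, and 5, 0 and 6 transcripts; the adjusted *P* of *Crem* transcript use under the block (edgeR) was 0.203, 1 and 0.224. The low level of *Brwd1* and the splitting of overlapping *Crem* transcripts limit what these libraries resolve.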
